A study of Mus musculus with 48 samples.

Results

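Mitochondrial ribosomal protein genes were taken as the genes of the batch-corrected tables whose symbol starts with Mrpl or Mrps followed by a digit, and 77 of 19601 genes met this rule. Of these, 48 are named for the large subunit (Mrpl) and 29 for the small subunit (Mrps). All 77 passed the filter on low counts, as did 14839 genes in all. Values were measured by RNA-seq of polyadenylated RNA from substantia nigra (SN), a midbrain region that holds dopaminergic neurons beside other neurons, glia and blood vessels.

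The mitochondrial ribosome translates the few mRNAs encoded by mitochondrial DNA, which specify core subunits of the respiratory chain and of ATP synthase. Its ribosomal RNAs are made in the organelle, whereas its proteins are encoded in the nucleus, made in the cytosol and imported. A small subunit binds the mRNA and reads its codons, and a large subunit joins the amino acids and releases the new protein at the inner membrane. Some of the proteins descend from bacterial ribosomal proteins and others are specific to mitochondria. The names of a few members do not give their place in the particle.

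In structures of the particle, Mrps30 and Mrps18a sit in the large subunit, and Mrps36 is a component of the oxoglutarate dehydrogenase complex and no ribosomal protein. By structure the list therefore held 50 large-subunit and 26 small-subunit genes, and by origin it held 46 with a bacterial homologue and 30 specific to mitochondria. The table before batch correction, with 55385 genes, listed 83 matching names, of which 6 were only there. Mrpl53 was listed at 0 counts in all 48 mice, and 88.0% of its exonic bases are shared with Gm42688 on the same strand. The other 5 were pseudogenes, of which Mrpl23-ps1 had the most, with 6 to 23 counts per mouse and a median of 13. They are not considered further.

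The mice were male C57BL/6J animals with no transgene. Each received 1 injection into the right striatum at 121 days of age, either of α-synuclein preformed fibrils (PFF), which seed aggregation of the endogenous protein, or of α-synuclein monomer as control, and breathed 21% or 11% O2. SN was collected 90 to 98 days after the injection. The labels give 12 weeks between injection and collection. The methods of the study describe 11% O2 throughout those weeks, whereas the design text of the series describes normoxia first and hypoxia only afterwards. The delayed arm shown in the study has no monomer-injected group at 11% O2, unlike these samples. Their groups match the arm in which 11% O2 began soon after the injection. The labels do not give when the exposure began. The 42 mice analysed were 11 monomer-injected and 12 PFF-injected mice at 21% O2 and 9 monomer-injected and 10 PFF-injected mice at 11% O2, and the label of each mouse marks a separate animal. The authors had left out 6 of 48 mice as outliers.

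Read counts on genes ranged from 12902996 to 17120921 per mouse (median 15378651). Mice were collected in 3 batches, and batch 1 alone held all 4 groups. Monomer-injected mice at 21% and at 11% O2 shared batch 1 only. The defining dopaminergic marker Th was present in every mouse but ranged from 96.1 to 1079 TPM, a level scaled to gene length and library size. By edgeR, 0 of 8 dopaminergic markers were called in any comparison. At an unadjusted p below 0.05 there was 1 of 8 in monomer-injected mice and 0 of 8 in the other comparisons. The median SE of their log2 fold changes was 0.27 for PFF against monomer at 21% O2 and 0.29 at 11% O2. Over all genes it was 0.059 and 0.065. The interval of the fold change lay within 0.25 on either side of 0 for 1 and 0 of the 8 markers. These tests therefore cannot show whether dopaminergic content was unchanged. The part of the spread of Th in the values of the ribosomal genes was not tested. In such bulk tissue, fewer cells of a type and less RNA per cell cannot be told apart.

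The promoters of 5 members are shown because the results below turn on them or because they carry the motifs counted next. Mrps30 was called in 2 of the 5 tests, Mrps9 and Mrps12 were among the members with the smallest p for PFF, Mrpl43 starts head to head with Twnk, and Mrpl22 holds 2 of the motifs. Each run is the 250 bases before the transcription start (RefSeq, build GRCm38.p6), 5′ to 3′ on the strand of the gene, with the motifs in capitals.

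Mrps30, chr13:118387253-118387502, minus strand: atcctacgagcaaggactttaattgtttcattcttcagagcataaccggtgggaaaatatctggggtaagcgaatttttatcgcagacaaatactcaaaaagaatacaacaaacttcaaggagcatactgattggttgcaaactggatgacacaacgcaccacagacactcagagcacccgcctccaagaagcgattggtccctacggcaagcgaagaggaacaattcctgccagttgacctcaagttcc
Mrps9, chr1:42850983-42851232, plus strand: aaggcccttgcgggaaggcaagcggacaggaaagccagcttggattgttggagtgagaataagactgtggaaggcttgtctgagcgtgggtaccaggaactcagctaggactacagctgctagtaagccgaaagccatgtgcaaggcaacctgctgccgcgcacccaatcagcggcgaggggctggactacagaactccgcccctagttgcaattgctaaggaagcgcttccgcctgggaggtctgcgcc
Mrps12, chr7:28741822-28742071, minus strand: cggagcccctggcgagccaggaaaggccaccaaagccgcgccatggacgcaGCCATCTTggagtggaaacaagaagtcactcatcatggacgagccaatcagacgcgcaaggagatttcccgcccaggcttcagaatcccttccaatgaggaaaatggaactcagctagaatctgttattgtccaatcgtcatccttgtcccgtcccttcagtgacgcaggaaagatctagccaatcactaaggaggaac
Mrpl43, chr19:45006443-45006692, minus strand: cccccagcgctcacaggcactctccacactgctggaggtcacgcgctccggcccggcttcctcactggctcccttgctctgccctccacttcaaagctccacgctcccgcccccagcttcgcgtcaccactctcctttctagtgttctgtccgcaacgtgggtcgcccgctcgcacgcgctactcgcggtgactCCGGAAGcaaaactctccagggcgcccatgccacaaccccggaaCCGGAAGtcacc
Mrpl22, chr11:58171414-58171663, plus strand: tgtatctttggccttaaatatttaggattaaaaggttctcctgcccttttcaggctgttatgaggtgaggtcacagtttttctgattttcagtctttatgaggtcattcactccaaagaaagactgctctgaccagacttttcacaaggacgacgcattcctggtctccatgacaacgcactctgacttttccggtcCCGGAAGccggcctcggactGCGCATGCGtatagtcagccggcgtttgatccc

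A RefSeq window from 250 bases before to 50 bases after the start was found for 68 of the 77 genes. It was searched on both strands for GCGCATGCG (the motif of NRF1), CCGGAAG (the motif of the ETS family, which includes GABPA) and AAGATGGC (the motif of YY1). None of the 3 contains another, but CCGGAAG and AAGATGGC can overlap by AAG. All 3 factors are known regulators of nuclear genes for mitochondrial proteins. These genes had 74 windows, as some have more than 1 start. The ETS motif was in 25 of the 74 windows (33.8%), against 15.2% of 14960 windows of all genes tested and 8.86% of all 32851 windows. The YY1 motif was in 12 (16.2%), against 3.81% of windows of tested genes and 2.75% of all. The NRF1 motif was in 7 (9.46%), against 3.14% and 1.75%. At least 1 of the 3 was in 37 windows (50.0%), against 20.5% and 12.5%.

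Among the 42 large-subunit names with a window, 14 held the ETS motif, 6 the YY1 motif and 6 the NRF1 motif. Among the 26 small-subunit names, 11 held the ETS motif, 6 the YY1 motif and 1 the NRF1 motif. In the sequences above, Mrpl43 holds the ETS motif at 2 places, Mrpl22 holds the ETS and the NRF1 motif, and Mrps12 holds the YY1 motif in reverse orientation and, past the bases shown, the ETS motif at its start. The windows of Mrps30 and Mrps9 hold none of these letters. A match is a description of the sequence and not a measured binding site.

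Many members lie head to head with another gene, with starts on opposite strands at most 1000 bases apart. This held for 33 of 77 members (42.9%), 2149 of 14827 protein-coding genes tested (14.5%) and 2369 of 21897 protein-coding genes of the annotation (10.8%). One such pair joins both subunits, since Mrpl46 (large) and Mrps11 (small) start beside each other. Others pair a member with another mitochondrial gene, namely Mrpl43 with Twnk, the helicase of mitochondrial DNA, Mrps12 with Sars2, the mitochondrial seryl-tRNA synthetase, and Mrpl36 and Mrpl47 with the complex I subunits Ndufs6 and Ndufb5. All of these pairs except Mrps12 and Sars2 also share exonic bases, as described next. The partners were unequal in level. Mean TPM over the 42 mice was 37.9 for Mrpl43 and 14.8 for Twnk, 113 for Mrps12 and 16.4 for Sars2, and 86.1 for Mrpl46 and 40.7 for Mrps11.

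Exonic bases were shared with another gene by 32 members, and 16 of them shared at least 10%. The partner was on the opposite strand for 27 of the 32. The counting did not use strand, so reads on shared bases cannot be told apart by strand. The parameters listed by the study include none that counts a read for several genes. Such reads may be absent from both genes, which would make TPM of these members too low, and this was not tested. Mrpl53, with 88.0% of exonic bases shared, had 0 counts in all 48 mice. The values of Mrps25 (69.8% shared with Nr2c2), Mrps34 (63.4% shared with Mapk8ip3) and Mrpl19 (36.0% shared with Gcfc2) are the least certain. Mrps34 also shares 36.97% with Nme3, which lies on the same strand. For Mrps30, 9.35% of exonic bases are shared with B430218F22Rik. Reads that matched several places were counted once at the primary alignment, so reads of a member and of its pseudogenes can be exchanged.

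The members were expressed at moderate levels that differed widely between genes. Mean TPM had a median of 49.1 over the 77 members, with quartiles of 31.3 and 81.7 and a range of 7.31 to 230.2. The median was 53.6 for the 48 Mrpl and 42.9 for the 29 Mrps genes, and 48.9 for members with a bacterial homologue and 48.6 for those specific to mitochondria. These medians lay above the 23.1 of all genes tested. They lay below the 286 of 76 cytosolic ribosomal protein genes and the 222 of 37 nuclear complex I subunit genes. TPM divides counts by gene length, whose median was 2533 bases for the members and 4462 for all genes tested. It was 1805.5 for the cytosolic ribosomal and 1569 for the complex I genes.

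Of the large-subunit names, Mrpl41, a protein specific to mitochondria, was highest at 230.2 TPM, followed by Mrpl27, which lies near the peptidyl transferase centre, at 150.1 and Mrpl34 at 135.3. Mrpl12, the stalk protein that contacts elongation factors, had 123.6 TPM, and Mrpl58, which derives from a peptidyl-tRNA hydrolase, had 56.4. Mrpl15 (15.4), Mrpl32 (14.8) and Mrpl33 (7.31) were lowest. Their gene lengths were 8487, 4982 and 7326 bases, against 888, 985 and 607 for Mrpl41, Mrpl27 and Mrpl34. By mean counts per mouse, Mrpl15 (500) lay above Mrpl34 (314). The part of gene length in the order by TPM was not tested. Mrpl32 and Mrpl33 did not overlap over the mice of any group. In PFF-injected mice at 21% O2, for example, Mrpl33 lay between 6.04 and 8.60 TPM and Mrpl32 between 11.9 and 19.1, whereas Mrpl32 and Mrpl15 overlapped in every group.

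Of the small-subunit names, Mrps21 (164.2 TPM), Mrps23 (115) and Mrps12 (113), the last a protein of the decoding centre, were highest, and Mrps23 and Mrps12 overlapped in every group. Mrps10 (21.4), Mrps35 (9.77) and Mrps30 (7.84) were lowest. Their gene lengths were 8079, 8631 and 6666 bases, against 739, 1560 and 1040 for Mrps21, Mrps23 and Mrps12. The names that do not give their place had 76.2 TPM for Mrps36 and 48.1 for Mrps18a. The 5 ribosomal proteins under other names were at similar levels, with Aurkaip1 highest at 153 ± 8.0 (SD, n = 11) and Gadd45gip1 lowest at 28.9 ± 2.1 (SD, n = 11) in monomer-injected mice at 21% O2.

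**Figure D1:**
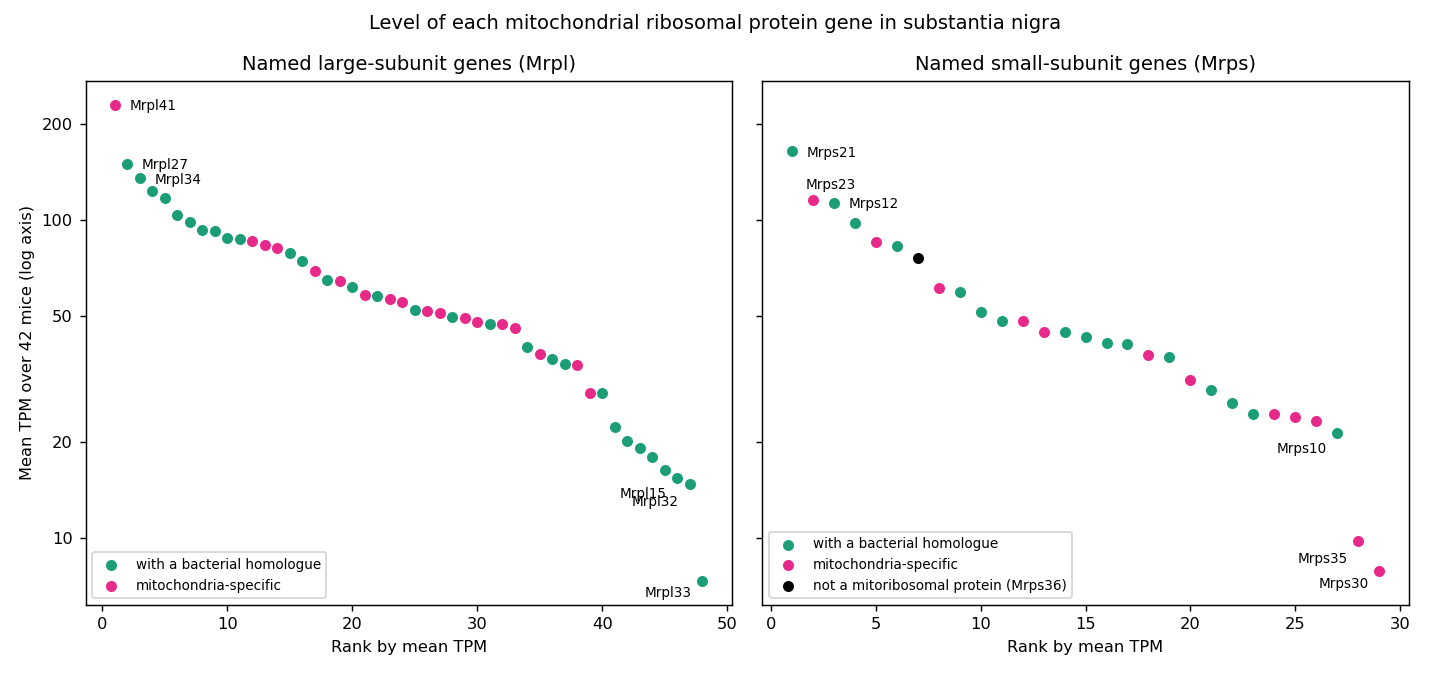
Mean TPM of each member over 42 mice on a log axis, ranked within the 48 Mrpl genes (left) and the 29 Mrps genes (right). Colours mark members with a bacterial homologue, those specific to mitochondria and Mrps36. Levels run from 230.2 (Mrpl41) to 7.31 TPM (Mrpl33) on the left and from 164.2 (Mrps21) to 7.84 (Mrps30) on the right, and both origins are spread over the range.

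The spread between mice of 1 group was small. The SD of log2 CPM within groups had a median of 0.107 over the members, from 0.0738 for Mrpl19 to 0.177 for Mrps6, against a median of 0.142 over all genes tested. Mean counts per mouse behind these values ranged from 144 to 1289 per member with a median of 492.

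Summed over genes, the members held similar small parts of the transcriptome in the 4 groups, with group means closer than the range within any group. The 48 Mrpl genes summed to 3015 ± 67.9 TPM (SD, n = 11) in monomer-injected and 3087 ± 90.9 (SD, n = 12) in PFF-injected mice at 21% O2, and to 2989 ± 57.4 (SD, n = 9) and 2997 ± 112 (SD, n = 10) at 11% O2. The lowest and highest sums were 2881 and 3134, 2947 and 3238, 2882 and 3107, and 2872 and 3215 in the same order, so all 4 groups overlapped. The 29 Mrps genes summed to 1508 ± 45.5, 1534 ± 47.0, 1494 ± 31.1 and 1508 ± 43.4 TPM. All members together made up 0.452%, 0.462%, 0.448% and 0.450% of TPM.

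The ratio of the Mrpl to the Mrps sum was 2.00 ± 0.028 in monomer-injected and 2.01 ± 0.029 in PFF-injected mice at 21% O2, and 2.00 ± 0.041 and 1.99 ± 0.022 at 11% O2 (SD, n as above). With members placed by structure the ratio was 2.23, 2.24, 2.23 and 2.22.

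**Figure D2:**
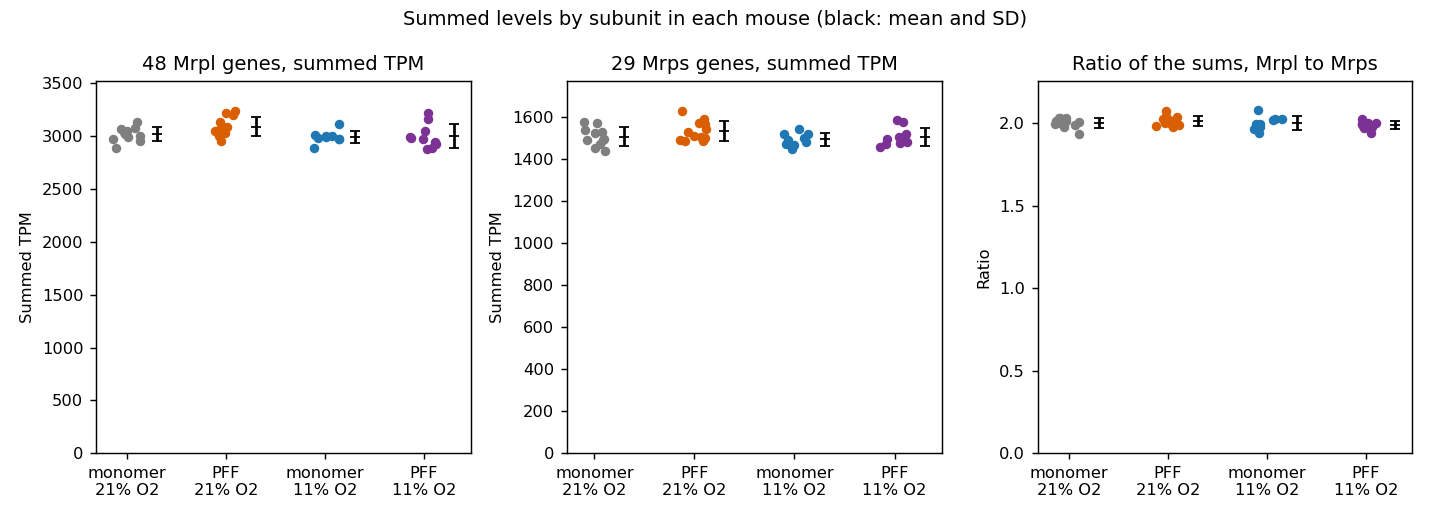
Summed TPM of the 48 Mrpl genes (left) and the 29 Mrps genes (middle) and the ratio of these sums (right), with 1 point per mouse and the mean and SD in black, all axes from 0. The 4 groups overlap in each panel, and the group means of the ratio lie between 1.99 and 2.01.

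The first comparison asked how aggregation seeded by PFF altered the members in mice breathing 21% O2. No member passed both thresholds of a call (edgeR quasi-likelihood test, Benjamini-Hochberg adjusted p below 0.05 over all genes and an absolute log2 fold change above 0.25), whereas 3.7% of all genes did. DESeq2 also called 0. Without the fold threshold 2 members passed, Mrps9 and Mrps28, against 7.59% of all genes. At an unadjusted p below 0.05 there were 16 members, 14 higher and 2 lower in PFF-injected mice, against 22.4% of all genes, and 13 by DESeq2.

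The members nevertheless leaned to one side by a small amount. Their median log2 fold change was 0.048, with 62 of 77 above 0, whereas the median over all genes was 0.00085 with 50.4% above 0. Medians by subunit were 0.050 for Mrpl (40 of 48 above 0) and 0.046 for Mrps (22 of 29). The 95% interval of the fold change lay wholly within 0.25 on either side of 0 for 73 of 77 members, against 62.1% of all genes. The median SE was 0.046 for the members and 0.059 over all genes. The median was 0.075 in batch 1 (64 above 0) and 0.015 in batch 2 (47 above 0), the batches that held both groups. With counts centred within bins of gene length it was 0.030 with 48 above 0. Genes of a mouse were measured together, so these counts are not of independent observations. The median log2 deviation of members from their mean over all mice was also taken per mouse. At 21% O2 it was -0.011 ± 0.034 (SD, n = 11) in monomer-injected and 0.036 ± 0.050 (SD, n = 12) in PFF-injected mice. The groups overlapped.

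Mrps9, a small-subunit protein with a bacterial homologue that reaches the peptidyl-tRNA site, had 20.1, 24.2 and 25.8 TPM as lowest, median and highest value in monomer-injected mice at 21% O2. In PFF-injected mice these values were 24.2, 26.1 and 29.3, and 6 of 12 mice lay above the highest control. Its log2 fold change was 0.17 (SE 0.048, 95% interval 0.077 to 0.27, edgeR adjusted p = 0.0194), so it was higher in PFF-injected mice by less than the fold threshold. It was 0.15 in batch 1 and 0.19 in batch 2, and the adjusted p stayed between 0.0122 and 0.0461 when each mouse was left out in turn. At 11% O2 the same values were 20.1, 23.6 and 26.3 in monomer-injected and 22.3, 24.3 and 26.4 in PFF-injected mice, and both groups overlapped throughout.

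Mrps28, a small-subunit protein with a bacterial homologue, had 37.8, 43.8 and 49.7 TPM in monomer-injected and 45.2, 49.3 and 59.4 in PFF-injected mice at 21% O2. There, 5 of 12 PFF-injected mice lay above the highest control. Its log2 fold change was 0.23 (SE 0.068, 95% interval 0.089 to 0.36, edgeR adjusted p = 0.0327). With each mouse left out in turn the adjusted p ran from 0.0185 to 0.0735 (edgeR) and passed in 35 of 42 fits, and it missed without replicate 1, 4, 10 or 12 of the PFF-injected or replicate 2, 4 or 8 of the monomer-injected mice at 21% O2. This value was uneven between batches, at 0.37 in batch 1 and 0.097 in batch 2, and the adjusted p was 0.102 when counts were centred within bins of gene length. At 11% O2 the lowest, median and highest values were 41.3, 48.01 and 56.0 in monomer-injected and 38.1, 49.0 and 60.6 in PFF-injected mice.

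The remaining members of the 10 with the smallest p did not pass. Mrps12 had 111.7, 116.5 and 133.4 TPM in monomer-injected and 96.4, 109.6 and 118.9 in PFF-injected mice at 21% O2, with 9 of 12 PFF-injected mice below the lowest control. Its log2 fold change was -0.12 (SE 0.044, edgeR adjusted p = 0.0763). With counts centred within bins of gene length it was -0.19 with an adjusted p of 0.0064 (edgeR). The log2 fold changes of the others were Mrpl54 at 0.14, Mrpl16 at 0.12, Mrps10 at 0.11, Mrpl37 at 0.096, Mrps21 at 0.13 and Mrpl41 at 0.090, with edgeR adjusted p from 0.0542 to 0.173. Mrps30, at -0.16 (SE 0.063, edgeR adjusted p = 0.103), is described below with its values.

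By structural group, the largest median was that of the 20 large-subunit members specific to mitochondria, at 0.068 with 16 above 0, against 0.034 for the 30 large-subunit members with a bacterial homologue (25 above 0). In the small subunit the medians were 0.039 for the 10 specific members and 0.053 for the 16 with a homologue. The names that do not give their place did not pass, at 0.035 for Mrps36 and 0.030 for Mrps18a, and neither did Mrpl12 at 0.033 and Mrpl58 at 0.082.

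**Figure D3:**
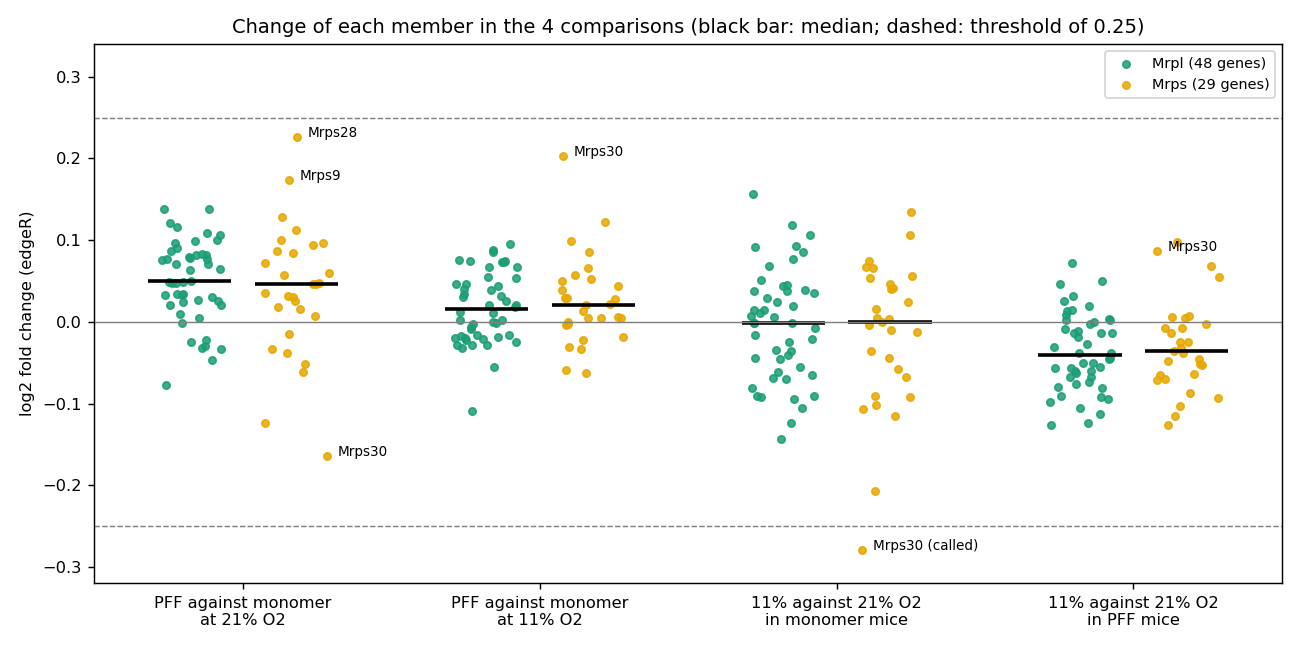
Log2 fold change (edgeR) of each Mrpl gene (48) and Mrps gene (29) in the 4 comparisons, with black bars at the medians and dashed lines at the threshold of 0.25. Points lean above 0 for PFF at 21% O2 and below 0 for 11% O2 in PFF-injected mice, and Mrps30 at 11% O2 in monomer-injected mice is the one called point.

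At 11% O2, the comparison of PFF-injected with monomer-injected mice gave no call among members or among all genes (0% by edgeR). At an unadjusted p below 0.05 there was 1 member, against 3.92% of all genes, and DESeq2 called 0 members. The median log2 fold change was 0.018 with 48 of 77 above 0, against -0.00060 over all genes with 49.6% above 0, and it was 0.015 for Mrpl and 0.021 for Mrps. It was -0.013 within batch 1 and 0.031 within batch 3. The 95% interval lay within 0.25 on either side of 0 for 74 of 77 members, against 67.9% of all genes.

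The member with the smallest p was Mrps30, at 0.20 (SE 0.070, unadjusted p = 0.00578, edgeR adjusted p = 0.9997). It was followed by Mrpl13 at 0.088, Mrps14 at 0.085, Mrpl18 at 0.096 and Mrpl41 at 0.073, with the same adjusted p. Mrpl41 was the member highest by TPM. At 11% O2 its lowest, mean and highest values were 198.7, 217.4 and 231 TPM in monomer-injected and 203.8, 226.4 and 251.3 in PFF-injected mice. At 21% O2 they were 201.6, 230.7 and 265.1 in monomer-injected and 221.1, 242.6 and 264.7 in PFF-injected mice. The 4 groups overlapped.

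The next comparison asked what chronic hypoxia did in monomer-injected mice. Of the 77 members, 1 was called, Mrps30, which fell, whereas 7.23% of all genes were called. DESeq2 also called 1, and 1 passed the adjusted p alone, against 13.2% of all genes. At an unadjusted p below 0.05 there were 9 members, 2 higher and 7 lower at 11% O2, against 27.7% of all genes. The median log2 fold change was -0.00099 with 38 of 77 above 0, against -0.0060 over all genes with 47.9% above 0, and the medians of Mrpl (-0.0013) and Mrps (0.00030) were as close to 0. The 95% interval lay within 0.25 on either side of 0 for 71 of 77 members, against 55.2% of all genes. Within batch 1, the one that held both groups, the median was 0.021.

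Mrps30 is a large-subunit protein specific to mitochondria despite its name (chr13:118378381-118387252, minus strand, mm10). Its lowest, median and highest values were 7.8, 8.6 and 9.6 TPM in monomer-injected mice at 21% O2 and 4.8, 7.3 and 8.7 in those at 11% O2. In PFF-injected mice they were 6.4, 7.6 and 8.6 at 21% O2 and 6.9, 8.1 and 8.9 at 11% O2. Monomer-injected mice at 21% O2 thus had the highest and those at 11% O2 the lowest median, and all 4 groups overlapped. Group means were 8.59 ± 0.61 (SD, n = 11), 7.05 ± 1.22 (SD, n = 9), 7.58 ± 0.65 (SD, n = 12) and 8.04 ± 0.56 (SD, n = 10) in the same order.

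Between monomer-injected mice, Mrps30 fell by 0.28 on the log2 scale at 11% O2 (SE 0.068, 95% interval -0.42 to -0.14, edgeR adjusted p = 0.00446), and 6 of 9 mice lay below the lowest mouse at 21% O2. The call depended on the fold threshold and on how batch was treated. In batch 1 alone the difference was -0.41 (edgeR adjusted p = 0.0337), and before batch correction the 4 mice at 21% O2 lay between 8.14 and 9.17 TPM and the 4 at 11% O2 between 5.34 and 7.51. With batch as a covariate on the uncorrected counts of the 42 mice it was -0.22 (edgeR adjusted p = 0.0671), and with GC bins it was also -0.22, under the fold threshold. Leaving out each mouse in turn gave -0.32 to -0.23 with adjusted p from 0.000833 to 0.0147 (edgeR), and the call was lost without monomer-injected replicate 4 at 11% O2 (-0.23) or replicate 7 (-0.24) because the size fell under 0.25.

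**Figure D4:**
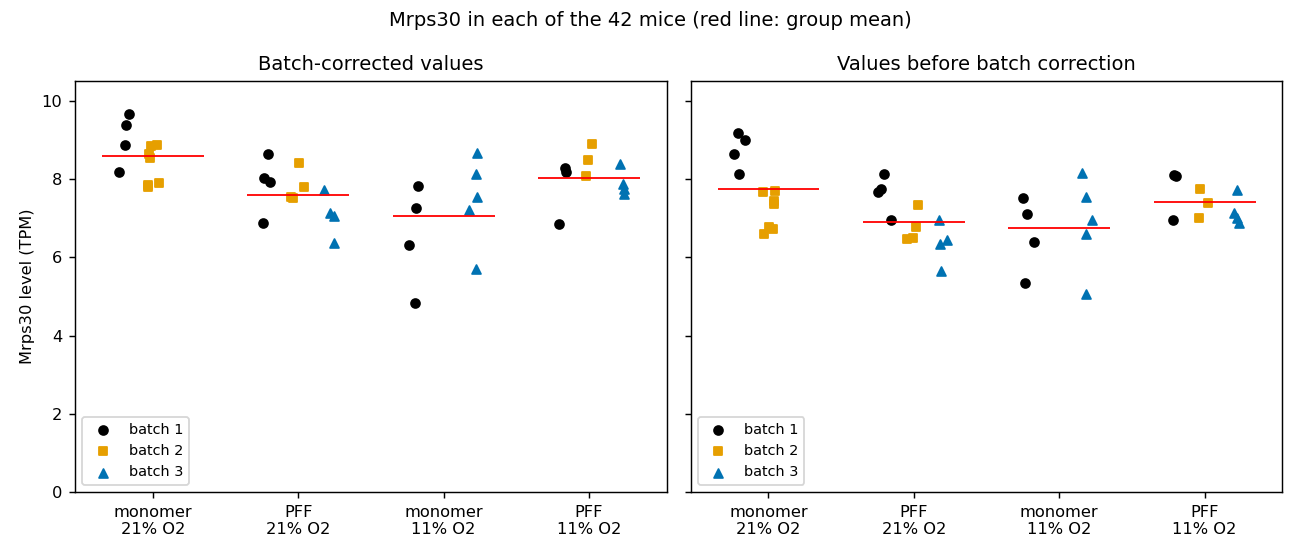
Mrps30 TPM of each of the 42 mice by group, batch-corrected (left) and before batch correction (right), with symbols by batch and a red line at the group mean, axes from 0. Within batch 1 the 4 monomer-injected mice at 21% O2 (8.14 to 9.17 TPM before correction) lie above the 4 at 11% O2 (5.34 to 7.51).

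The other members with the smallest p did not pass in this comparison. Mrpl33, a small large-subunit protein with a bacterial homologue, was the member lowest by TPM. It had 7.35, 7.64 and 8.11 TPM at 21% O2 and 6.24, 6.88 and 8.01 at 11% O2. Mrpl33 had 7 of 9 mice at 11% O2 below the lowest control. Its log2 fold change was -0.14 (SE 0.054, edgeR adjusted p = 0.0676), and in batch 1 alone it was -0.25 with an adjusted p of 0.0373 (edgeR), past both thresholds. Mrps6, the member with the largest spread, had 36.9, 44.9 and 55.9 TPM at 21% O2 and 31.1, 37.5 and 48.3 at 11% O2, a log2 fold change of -0.21 (SE 0.079, edgeR adjusted p = 0.0734). Mrps25, which shares most of its exonic bases with Nr2c2, was at -0.11 (edgeR adjusted p = 0.0702). Mrpl19, Mrpl35 and Mrps11 had log2 fold changes of -0.090, -0.12 and -0.12, and Mrpl54, Mrpl52 and Mrpl37 of 0.12, 0.16 and 0.086, with edgeR adjusted p from 0.104 to 0.184.

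In PFF-injected mice, 11% against 21% O2 gave 0 called members by edgeR and by DESeq2, against 0.58% of all genes by edgeR, and 0 passed the adjusted p alone, against 0.815%. At an unadjusted p below 0.05 there were 12 members, all lower at 11% O2, against 10.7% of all genes in either direction, and 9 by DESeq2. The median log2 fold change was -0.038 with 19 of 77 above 0, against -0.0063 over all genes with 46.8% above 0. It was -0.041 for Mrpl and -0.036 for Mrps. All 77 intervals lay within 0.25 on either side of 0. The median was -0.050 in batch 1 and -0.040 in batch 3 but 0.0055 in batch 2, where 43 of 77 members were above 0. Per mouse, the median log2 deviation of members was 0.036 ± 0.050 (SD, n = 12) at 21% O2. It was -0.0013 ± 0.063 (SD, n = 10) at 11% O2, and the groups overlapped.

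Mrpl45, which lies at the exit of the large subunit and contacts the inner membrane, had the smallest p. Its lowest, median and highest values were 47.3, 51.9 and 59.1 TPM in PFF-injected mice at 21% O2 and 44.8, 48.5 and 53.0 at 11% O2. The groups overlapped, with 3 of 10 mice at 11% O2 below the lowest at 21% O2, and the log2 fold change was -0.12 (SE 0.037, edgeR adjusted p = 0.126). It was -0.16, -0.061 and -0.12 in batches 1, 2 and 3. Mrpl16 at -0.11, Mrps11 at -0.13, Mrps9 at -0.12 and Mrpl41 at -0.098 followed, with edgeR adjusted p from 0.326 to 0.389. Mrpl16, Mrps9 and Mrpl41 are also among the 10 members named for PFF at 21% O2, and both comparisons share the PFF-injected mice at 21% O2.

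The interaction tested whether the difference between PFF-injected and monomer-injected mice itself differed between 11% and 21% O2. It was called for 1 member, Mrps30, and for 2.14% of all genes, and by the adjusted p alone it was also 1 member, against 2.32%. DESeq2 called 1 as well. For Mrps30 the log2 difference was 0.37 (SE 0.094, 95% interval 0.18 to 0.56, edgeR adjusted p = 0.0241), from -0.16 at 21% O2 to 0.20 at 11% O2. It stayed called with each mouse left out in turn (0.31 to 0.41, adjusted p 0.00851 to 0.0478, edgeR). With batch as a covariate on the uncorrected counts of the 42 mice it was 0.33 (edgeR adjusted p = 0.0753), and in batch 1 alone it was 0.41 (edgeR adjusted p = 0.521).

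Over the members, the median of the interaction was -0.034 with 24 of 77 above 0, against -0.00057 and 49.7% above 0 over all genes. At an unadjusted p below 0.05 there were 6 members, 3 in each direction, against 15.4% of all genes. Mrpl16 (-0.15), Mrpl52 (-0.25), Mrps12 (0.15) and Mrpl1 (0.14) did not pass, with edgeR adjusted p from 0.197 to 0.307. For Mrpl52 the lowest, median and highest TPM were 46.8, 51.8 and 62.4 in monomer-injected and 49.5, 56.0 and 65.9 in PFF-injected mice at 21% O2, and 50.5, 58.1 and 70.7 and 47.8, 50.8 and 67.2 at 11% O2. Its groups overlapped, and the median was higher in PFF-injected mice at 21% O2 and lower at 11% O2.

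Set beside other gene groups, the members had the median closest to 0 of 4 groups for PFF at 21% O2. For PFF at 21% O2 the median log2 fold change was 0.048 for the mitochondrial ribosomal genes, 0.114 for the 76 cytosolic ribosomal protein genes (76 above 0, 0 called by edgeR, 55 at an unadjusted p below 0.05), 0.078 for 37 nuclear complex I subunits (35 above 0, 0 called, 15 at an unadjusted p below 0.05) and 0.135 for the 13 mRNAs of mitochondrial DNA (13 above 0, 1 called, 4 past the adjusted p alone, 13 at an unadjusted p below 0.05). Of all genes, 3.7% were called for PFF at 21% O2, 7.59% passed the adjusted p alone and 22.4% had an unadjusted p below 0.05. The called mRNA was mt-Atp8, an ATP synthase subunit, which rose by 0.29 on the log2 scale (SE 0.062, edgeR adjusted p = 0.00235). For PFF at 11% O2 the medians were 0.018, 0.041, 0.024 and 0.109 in the same order. For 11% O2 they were -0.00099, 0.018, -0.0033 and 0.0053 in monomer-injected mice and -0.038, -0.050, -0.044 and -0.047 in PFF-injected mice.

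**Figure D5:**
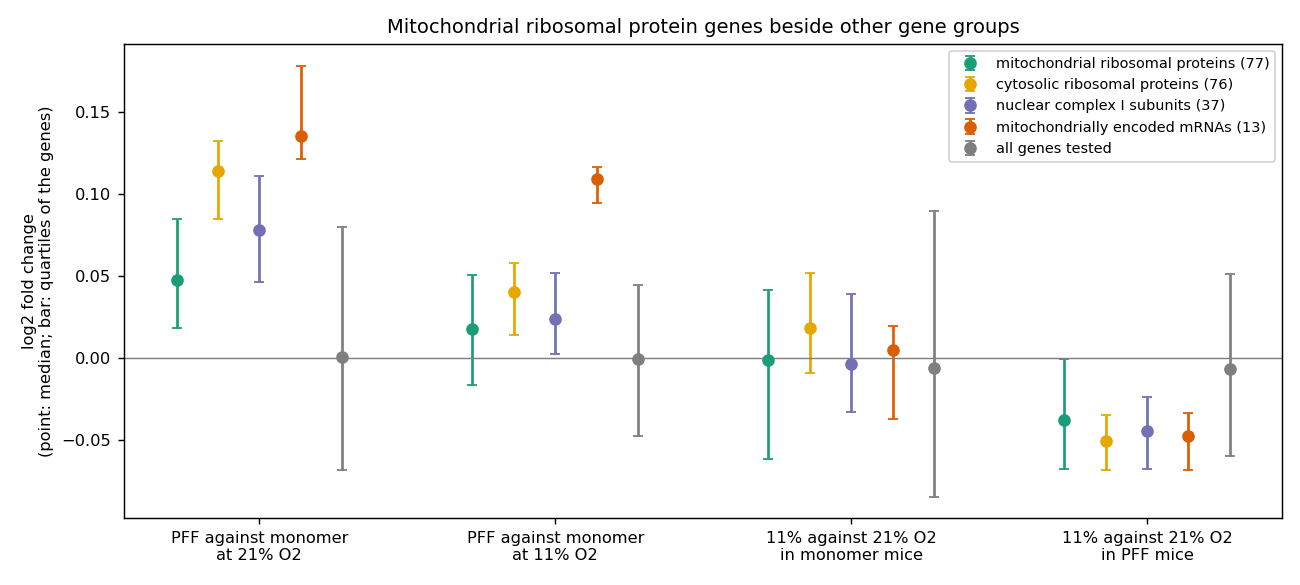
Median log2 fold change (points) and quartiles of the genes (bars) of the mitochondrial ribosomal protein genes, cytosolic ribosomal protein genes, nuclear complex I subunits, mitochondrially encoded mRNAs and all genes tested, in the 4 comparisons. The median of the mitochondrial ribosomal genes is 0.048 for PFF at 21% O2 and -0.038 for 11% O2 in PFF-injected mice, with the medians of the other mitochondrial and ribosomal groups on the same side.

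Ribosomal proteins named otherwise were 0 of 5 called in every comparison by edgeR. Chchd1, a small-subunit protein, had the largest value for PFF at 21% O2, at 0.17 (SE 0.053, edgeR adjusted p = 0.0376), and passed the adjusted p alone, from 87.7 ± 6.3 to 97.5 ± 8.3 TPM (SD, n = 11 and 12). Dap3 and Ptcd3, which bind GTP and mRNA in the small subunit, were at 0.090 and 0.062, and the large-subunit protein Gadd45gip1 at 0.031. At an unadjusted p below 0.05 there were 2, 1, 0, 1 and 0 of the 5 in the comparisons PFF at 21% O2, PFF at 11% O2, 11% O2 in monomer-injected mice, 11% O2 in PFF-injected mice and the interaction. Over all genes these shares were 22.4%, 3.92%, 27.7%, 10.7% and 15.4% in the same order. The shares of all genes called were 3.7%, 0%, 7.23%, 0.58% and 2.14%. By the adjusted p alone, 7.59% of all genes passed for PFF at 21% O2.

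Factors that build the ribosome or modify its RNA were 0 of 26 called in every comparison by edgeR, with 4, 0, 5, 4 and 3 at an unadjusted p below 0.05 in the same order, against 22.4%, 3.92%, 27.7%, 10.7% and 15.4% of all genes. For PFF at 21% O2 the large-subunit assembly GTPase Mtg1 (0.18, edgeR adjusted p = 0.0126) and the inner membrane protein Mpv17l2 (0.18, edgeR adjusted p = 0.0470) passed the adjusted p alone, 2 of 26, as did 7.59% of all genes. Mitochondrial aminoacyl-tRNA synthetases were 0 of 20 called in every comparison, with 3, 0, 6, 4 and 2 at an unadjusted p below 0.05. Sars2, the head-to-head partner of Mrps12, passed the adjusted p alone in monomer-injected mice at 11% O2, at 0.23 (SE 0.060, edgeR adjusted p = 0.00801).

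In monomer-injected mice at 11% O2, 1 gene was called in each of 3 further lists of the pathway, where 7.23% of all genes were called. Mtrf1l, a release factor that ends mitochondrial translation, was 1 of 14 translation factors called and fell by 0.31 on the log2 scale (SE 0.066, edgeR adjusted p = 0.00114). Twnk, the partner of Mrpl43, was 1 of 11 genes of mitochondrial transcription and RNA stability and fell by 0.26 (SE 0.061, edgeR adjusted p = 0.00328). Mrpl43, which shares 33.4% of its exonic bases with Twnk, was at 0.11 (edgeR adjusted p = 0.214). Ppargc1b, a coactivator of mitochondrial biogenesis, was 1 of 9 regulators and fell by 0.32 (SE 0.076, edgeR adjusted p = 0.0034). None of these lists had a called gene for PFF at either O2 level or for 11% O2 in PFF-injected mice by edgeR, where 5, 2 and 5 of their genes for PFF at 21% O2, 0, 1 and 2 for PFF at 11% O2 and 0, 1 and 1 in PFF-injected mice had an unadjusted p below 0.05. By the adjusted p alone, 1 of 14, 1 of 11 and 3 of 9 of their genes passed for PFF at 21% O2. All of them were lower, and 7.59% of all genes passed. Twnk was among them, at -0.23 (SE 0.057, edgeR adjusted p = 0.00974), so the fold threshold separated its 2 results. In the interaction, Mtrf1l (0.33), Ppargc1b (0.42) and Yy1 (0.27, SE 0.057) were called, with edgeR adjusted p from 0.00705 to 0.0363. Of all genes, 2.14% were called there.

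Markers of other cells moved with O2 in the same libraries. In monomer-injected mice, 5 of 5 endothelial, 5 of 5 pericyte and 2 of 6 oligodendrocyte markers (Mog and Cnp) were called higher at 11% O2, as were 7 of 7 targets of hypoxia-inducible factor, a list named by the study on these samples and so no independent evidence. In PFF-injected mice 2 of 5 endothelial and 2 of 5 pericyte markers and 7 of 7 of those targets were called higher. Of all genes, 7.23% were called in monomer-injected and 0.58% in PFF-injected mice. For PFF at 21% O2, 1 of 5 endothelial markers (Slco1a4) was called higher, where 3.7% of all genes were called. Neuron, GABAergic neuron, astrocyte, microglia and dopaminergic markers were 0 called in each comparison by edgeR, with at most 2 of a list at an unadjusted p below 0.05. For the dopaminergic markers the test was imprecise, with a median SE of 0.27 for PFF at 21% O2, against 0.059 over all genes. In the interaction 1 oligodendrocyte marker (Mog) and 1 pericyte marker (Pdgfrb) were called lower, where 2.14% of all genes were called. Summed over the 5 endothelial markers, levels were 190 to 253 TPM in monomer-injected mice at 21% O2, 255 to 475 at 11% O2, 160.8 to 285.3 in PFF-injected mice at 21% O2 and 264 to 345 at 11% O2, so that the O2 groups did not overlap in monomer-injected mice. The 5 pericyte markers summed to 184.9 to 307.3, 245 to 568.1, 164.7 to 392.4 and 235 to 335 TPM in the same order, and the 6 oligodendrocyte markers to 7899 to 10901, 8266 to 12430, 7929 to 10425 and 8382 to 10587 TPM, with overlap between all groups. Every marker of these lists was above 0 in every mouse. The part of these cell types in the values of Mrps30 and of the other members was not tested.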

How the data were processed

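SN of 48 mice was sequenced as polyadenylated RNA (NEBNext Ultra RNA kit, which does not mark strand). Per the study's methods and the submitters' processing notes, the authors removed reads of ribosomal DNA, aligned with STAR 2.7.5a to mm10 with GENCODE annotation, removed duplicates with Picard 2.21.9, counted reads per gene with featureCounts 2.0.1 (reads with several matches at the primary alignment), left out 6 mice by principal components and corrected the harvest batch with ComBat-seq, with O2 and injection as covariates to keep. The deposited values used were counts before and after batch correction and TPM, which the authors computed from the counts and gene lengths.

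All 42 mice entered 1 edgeR 4.0.16 quasi-likelihood fit in R 4.3.3 (TMM, filterByExpr, 4 groups, no batch term) on the batch-corrected counts, with Benjamini-Hochberg adjustment over 14839 genes. A call needed adjusted p below 0.05 and an absolute log2 fold change above 0.25. SE is the fold change over the root of F, and intervals are 95%. DESeq2 1.42.0, limma 3.58.1 on log2(TPM + 1), uncorrected counts with batch as covariate, single batches, bins of length and GC content and leaving out each mouse were alternatives. The fit was tested on simulated counts. Precision is limited by the number of mice, 9 to 12 per group, by depth, 12902996 to 17120921 counts, and by the uneven batches. The O2 groups of monomer-injected mice shared batch 1 only, with 4 mice in each. The SE and p of the main fit take no account of the batch correction and may be too small. Between these groups, genes called fell from 1073 to 657 with batch as a covariate on the uncorrected counts of the 42 mice. Members called fell from 1 to 0.

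The members and lists were chosen with earlier results of these data known. Genes named are those called, the 5 or 10 with the smallest p per comparison, the 3 highest and lowest by TPM of each subunit name, members whose name misplaces them with Mrpl12 and Mrpl58, subunits under other names, and up to 3 called genes per list. Genes outside this rule (Mrps34, Mrpl43, Mrpl46, Mrpl47, Mrpl36, Mrpl22 and their neighbours, and the genes of lists that passed the adjusted p alone) were chosen after their values were seen. Lists were the mitoribosome subunits under other names, translation factors, assembly and rRNA modification, aminoacyl-tRNA synthetases, mitochondrial transcription and RNA stability, biogenesis regulators, mitochondrial mRNAs, cytosolic ribosomal proteins, complex I subunits, hypoxia-inducible factor targets and the cell type markers. The study describes assignment in pairs matched by weight, age, delivery date and, where possible, cage, but the labels do not name the pairs. Deviations of same-numbered mice from their group means had a median correlation of 0.0033 (54 pairs, -0.40 to 0.56). These came from batch-corrected values and cannot show whether mice were paired. The main fit used no pairing. No 2 mice had identical counts, and 0 columns of per-sample values were left unused.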

Additional observations from a re-analysis of the deposited data

Results flagged for a closer look

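Of 64 combinations of a group and a named member tested for a mouse far from the others of its group, 4 stood apart, where chance gives about 1 in 20, or 3.2. Mrpl16 was 42.2 TPM in monomer-injected replicate 3 at 11% O2, with the next mouse at 36.1, and 29.1 TPM in PFF-injected replicate 1 at 11% O2, with the next at 33.4. Mrps18a was 60.4 TPM in monomer-injected replicate 1 at 11% O2, with the next at 51.8. Mrps23 was 129.7 TPM in monomer-injected replicate 3 at 11% O2, with the next at 114.9. The response of Mrps30 to PFF differed between O2 levels, with a log2 difference of 0.37 (edgeR adjusted p = 0.0241).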

How the results depend on the processing

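Of the summary results (counts of calls, medians and levels), 554 values under alternatives stayed the same by the limits set and 19 moved, and for single members 1935 stayed on the same side, 8 lost a call and 2 gained one. No called value changed sign. For PFF at 21% O2, 2 members passed the adjusted p alone. For 11% O2 in monomer-injected mice, 0 were called with batch as a covariate on the uncorrected counts of 42 or of 48 mice and with GC bins, and 2 in batch 1 alone (Mrps30 and Mrpl33). The interaction gave 0 calls with batch as a covariate in 42 or 48 mice and in batch 1 alone. In these fits of 42 mice, 48 mice and GC bins Mrps30 was at -0.22, -0.19 and -0.22 at 11% O2 in monomer-injected mice, and its interaction was 0.33 and 0.29 in 42 and 48 mice. With each mouse left out in turn, an alternative chosen for 41 mice after seeing the data, calls at 11% O2 in monomer-injected mice ranged from 0 (without replicate 4 or 7 of monomer-injected mice at 11% O2) to 2 (without replicate 5, when Mrps6 was called at -0.25). TPM before batch correction was on a lower scale, with Mrpl sums of 2778, 2835, 2763 and 2763 and Mrps sums of 1388, 1410, 1379 and 1391 for monomer and PFF at 21% and monomer and PFF at 11% O2. With the replicate number as a block, members called were 0, 0, 1, 0 and 1 and medians 0.049, 0.0098, 0.00044, -0.036 and -0.039 in the order PFF at 21%, PFF at 11%, 11% O2 in monomer-injected mice, in PFF-injected mice and the interaction, and no call changed. The 6 left-out mice had uncorrected Mrps30 values of 6.96, 6.95 and 7.05 TPM (monomer, 11% O2), 6.92 (monomer, 21% O2) and 4.93 and 8.43 (PFF, 11% O2), the first of the last pair at 3134594 counts. Members above 0 for PFF at 21% O2 numbered 48 with length bins and 58 with limma. Calls over all genes for 11% O2 in monomer-injected mice went from 1073 to 657 with batch as a covariate in 42 mice and to 297 in batch 1 alone, those of the interaction from 318 (2.14% of genes) to 1.39% of genes (42 mice), 152 genes (48 mice) and 11 genes (batch 1), those for PFF at 21% O2 from 549 to 9 in batch 1 and 580 in batch 2, and those for 11% O2 in PFF-injected mice from 86 to 6, 7 and 2 in batches 1, 2 and 3. Single batches hold 3 to 7 mice per group.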
